A study of Homo sapiens with 4 samples.

Results

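The genes described here are 34 splicing factor genes, 20 encoding heterogeneous nuclear ribonucleoproteins (hnRNP) and 14 encoding serine and arginine rich (SR) proteins, among 58735 genes with an expression value. Membership in either family was set by gene name, with earlier results of these data known, and all 34 were found through their Ensembl identifiers in GENCODE release 44. RNA-seq was carried out on 4 libraries from NB4-labelled cells, and NB4 is known as a line derived from acute promyelocytic leukemia. In the control group 2 libraries came from untreated cells, and in the GNE-987-treated group 2 libraries came from cells given GNE-987 at 25 nM for 24 h. This chimeric compound brings BET bromodomain proteins to a ubiquitin ligase, after which they are degraded. The comparison addresses how expression of these genes differed after treatment with this degrader, in a single cell line at a single dose and time. The labels do not say that the libraries of a group came from separate cultures, so P values measure only the spread between these libraries, which may be technical.

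The labelled cell type was checked against marker genes. In the control libraries 3 of 10 promyelocytic markers reached a mean of 1 FPKM (fragments scaled to gene length and library), and their summed level was 12.9 and 11.2 FPKM. The granule protease gene CTSG was listed at 0 in all 4 libraries, and ELANE in both control libraries. By contrast, 10 of 12 erythroid markers reached 1 FPKM in the controls, with a summed level of 566 and 588 FPKM against 575 and 520.3 FPKM with GNE-987. Members of this sum lay on opposite sides, since GATA1 was at 124 and 122 FPKM in control and at 15.1 and 12.5 FPKM with GNE-987, and HBG1 at 42.3 and 44.8 FPKM in control and at 154 and 123 FPKM with GNE-987. TFRC alone held 243 and 270 FPKM of the erythroid sum in control and 185 and 177 FPKM with GNE-987. Among megakaryocyte markers 0 of 6, and among lymphoid markers 1 of 7, reached 1 FPKM in the controls. With GNE-987 the sums were 39.0 and 37.3 FPKM for promyelocytic, 6.76 and 7.42 FPKM for megakaryocyte and 45.8 and 45.6 FPKM for lymphoid markers. The markers go against the label, and the cells are called here the cells labelled NB4. The part of these markers in the results on splicing factors was not tested.

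Proteins of the hnRNP families coat nascent transcripts, and many of them repress the use of nearby splice sites. SR proteins carry an RNA recognition motif and a tail rich in arginine and serine, and many of them recruit the splicing machinery to exons. Both families bind competing sites in the same transcripts, and the balance between them helps to set which exons are kept. Many of these genes also restrain their own messages through exons that lead to nonsense-mediated decay (NMD), so a value per gene joins productive and unproductive transcripts. Both families are expressed in most dividing cells, blood progenitors included.

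Depth and scaling bear on every fold change that follows. Reads recovered from the steps of the deposited values came to 19334655 and 19140303 on genes in the control libraries and to 12365567 and 12869350 in the GNE-987 libraries. Mitochondrial genes held 3.77% and 4.56% of these reads in control and 15.7% and 15.3% with GNE-987, and the part of this in the results was not tested. On the deposited scale the median log2 fold change (GNE-987 over control) of all 16668 tested genes was 0.17. That median became -0.57 when each library was scaled to its reads on genes, -0.39 with reads on nuclear-encoded genes alone, -0.24 after quantile normalization and -1.52 after scaling to GAPDH. In bulk RNA, less RNA per cell and fewer cells of a kind cannot be told apart, and the deposited scale gives levels relative to the other genes.

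Promoter sequences are shown because the families differed in some of the motifs searched. RefSeq promoter windows (GRCh38.p14, 250 bases before to 50 after a start) were found for 31 of the 34 genes; HNRNPA1, SRSF2 and TRA2A were not matched. Windows were searched on both strands for CACGTG (the E-box bound by MYC and related factors), GGGCGG (the GC box), TATAAA (the TATA box), CCAAT and CCGGAA (the core of ETS sites), none of which contains another. The 250 bases before the start are printed for the genes with the highest and the lowest fold change among those called in each family, with motif matches in capitals.
HNRNPH2: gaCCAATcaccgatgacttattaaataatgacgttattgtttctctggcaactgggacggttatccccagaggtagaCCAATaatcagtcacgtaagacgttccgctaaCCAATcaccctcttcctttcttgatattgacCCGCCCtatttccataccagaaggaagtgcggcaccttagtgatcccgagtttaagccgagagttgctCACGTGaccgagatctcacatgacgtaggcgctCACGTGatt
HNRNPLL: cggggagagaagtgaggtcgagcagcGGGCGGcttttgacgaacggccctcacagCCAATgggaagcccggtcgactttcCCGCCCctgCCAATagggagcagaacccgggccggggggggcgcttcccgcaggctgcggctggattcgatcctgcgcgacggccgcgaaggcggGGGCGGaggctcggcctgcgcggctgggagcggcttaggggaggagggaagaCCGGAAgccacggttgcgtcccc
TRA2B: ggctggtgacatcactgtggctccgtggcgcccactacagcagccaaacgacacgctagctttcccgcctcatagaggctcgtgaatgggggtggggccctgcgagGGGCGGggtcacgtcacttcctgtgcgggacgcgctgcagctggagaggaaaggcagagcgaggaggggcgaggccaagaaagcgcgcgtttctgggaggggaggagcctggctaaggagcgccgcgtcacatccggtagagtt
SRSF8: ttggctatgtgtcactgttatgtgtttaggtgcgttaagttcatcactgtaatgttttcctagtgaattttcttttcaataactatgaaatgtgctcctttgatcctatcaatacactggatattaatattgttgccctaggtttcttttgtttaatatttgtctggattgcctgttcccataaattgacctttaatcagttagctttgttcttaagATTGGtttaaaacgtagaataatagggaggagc

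The HNRNPH2 window (chrX:101407972-101408221, plus strand) held 3 CCAAT, 2 CACGTG and 1 GGGCGG matches. The HNRNPLL window (chr2:38602929-38603178, minus strand) held 3 GGGCGG, 2 CCAAT and 1 CCGGAA matches. In the TRA2B window (chr3:185938015-185938264, minus strand) the only match was 1 GGGCGG, and in the SRSF8 window (chr11:95066627-95066876, plus strand) it was 1 CCAAT. The pair of hnRNP windows thus held several kinds of motif and the pair of SR windows few. SRSF8 is known to descend from a retroposed copy of SRSF2, so it does not share the SRSF2 promoter.

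Over all windows of a gene, CCAAT was found in 17 of 19 hnRNP genes (89.5%), in 2 of 12 SR genes (16.7%) and in 39.7% of the 27305 genes of the table. CACGTG was found in 7 of 19 hnRNP genes (36.8%), in 0 of 12 SR genes and in 8.77% of all genes. GGGCGG was present in 16 of 19 hnRNP genes (84.2%), 6 of 12 SR genes and 48.3% of all genes. TATAAA was found in 3 of 19 hnRNP genes, 3 of 12 SR genes and 13.99% of all genes, and CCGGAA in 5 of 19 hnRNP genes, 2 of 12 SR genes and 20.1% of all genes, so these motifs did not set the hnRNP genes as far apart. These shares describe letters and not bound sites. Among the 2826 protein-coding genes whose mean reached 10 FPKM, the shares were 47.5% for CCAAT, 14.8% for CACGTG, 79.5% for GGGCGG, 8.74% for TATAAA and 40.1% for CCGGAA. The hnRNP genes also had more windows per gene, 30 for 19 genes against 15 for 12 SR genes. With the first window of each gene alone, CCAAT was found in 13 of 19 hnRNP genes (68.4%), in 2 of 12 SR genes (16.7%) and in 41.9% of those protein-coding genes. CCAAT was found on both sides of the change, in 2 of 3 genes called higher, 4 of 7 called lower and 13 of 20 not called.

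HNRNPA1, which binds exonic and intronic silencers, had the highest level of either family. It was at 253 and 255 FPKM in control and at 314 and 303 FPKM with GNE-987. Both GNE-987 libraries lay above both controls, with a log2 fold change of 0.28 ± 0.0391 (SE, adjusted P = 0.00438), short of a fold change of 2. HNRNPAB, an A/B-type RNA-binding protein, was at 170.2 and 183 FPKM in control and at 205 and 209 FPKM with GNE-987. HNRNPAB was also above its controls in both treated libraries, with a log2 fold change of 0.23 ± 0.0532 (SE, adjusted P = 0.0198). HNRNPA3, a close relative of HNRNPA1, was at 146 and 137 FPKM in control and at 102 and 94.4 FPKM with GNE-987. HNRNPA3 lay on the other side, with a log2 fold change of -0.52 ± 0.0634 (SE, adjusted P = 0.00293). The directions of HNRNPA1 and HNRNPAB held on the deposited scale but turned under scaling to GAPDH, under quantile normalization and under both scalings to reads.

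Among SR genes the highest control levels were those of SRSF2, SRSF3 and SRSF7. SRSF2, also known as SC35, was at 69.4 and 61.7 FPKM in control and at 74.9 and 70.7 FPKM with GNE-987. Both treated libraries were above the controls by little, with a log2 fold change of 0.15 ± 0.0777 (SE, adjusted P = 0.146), which was below 0 under each of the 4 other scalings. SRSF3, a short SR protein with a role in mRNA export, was at 58.7 and 58.3 FPKM in control and at 42.2 and 40.5 FPKM with GNE-987. SRSF7, its close relative with a zinc knuckle, was at 58.1 and 56.0 FPKM in control and at 29.4 and 28.3 FPKM with GNE-987. Both relatives were lower in each GNE-987 library than in each control. The log2 fold changes were -0.50 ± 0.0433 (SE, adjusted P = 0.00120) for SRSF3 and -0.98 ± 0.0477 (SE, adjusted P = 0.000348) for SRSF7, and both were short of a fold change of 2.

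**Figure D1:**
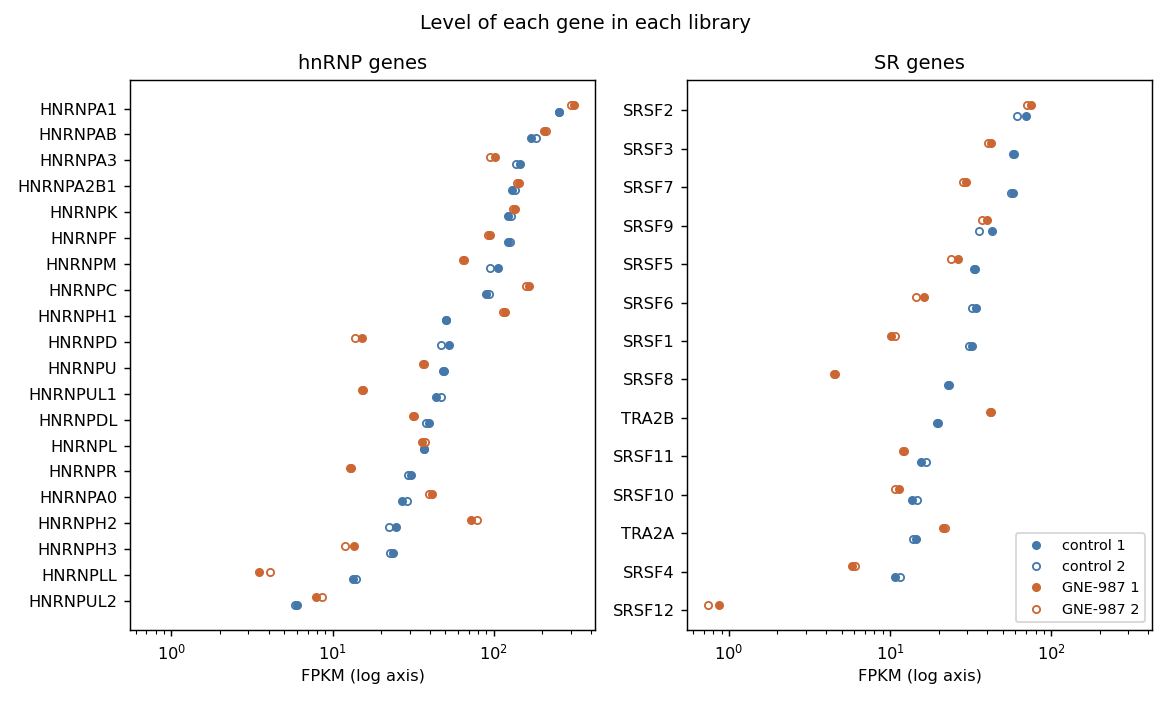
Level of each hnRNP gene (left) and SR gene (right) in each library, in FPKM on a log axis, with control libraries in blue and GNE-987 libraries in orange (filled, replicate 1, and open, replicate 2). Replicates sit close together. With GNE-987, HNRNPD, HNRNPLL, HNRNPUL1, SRSF1 and SRSF8 are displaced to the left and HNRNPH1, HNRNPH2 and TRA2B to the right. The control values of SRSF12 are 0 and are not drawn.

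Differentially expressed genes were called at an unadjusted P value under 0.05 from limma with a fold change over 2 or under 0.5. Of the 33 splicing factor genes whose mean reached 0.5 FPKM, 10 were called (30.3%), against 58.5% of all 16668 tested genes, 55.7% of protein-coding genes and 47.7% of protein-coding genes whose mean reached 10 FPKM. In the hnRNP family 2 of 20 genes were called higher and 4 lower, and in the SR family 1 of 13 was called higher and 3 lower. The background was 33.6% higher and 24.9% lower over all tested genes, and among 10996 protein-coding genes 2638 were higher and 3486 lower. Without a limit on the fold change, 28 of the 33 genes had an adjusted P value under 0.05, against 77.6% of all tested genes. The libraries of the groups did not overlap for 31 genes, against 89.1% of all tested genes, and HNRNPL and SRSF9 were the overlapping genes. Of these 31, 19 lay below and 12 above the controls, where the background was 41.6% below and 47.5% above. The share called lay below the background on the deposited scale, but not under every scaling. It was 90.9% of the 33 genes against 76.1% of all tested genes under scaling to GAPDH, 54.5% against 58.2% after quantile normalization and 57.6% against 64.9% with reads on genes.

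**Figure D2:**
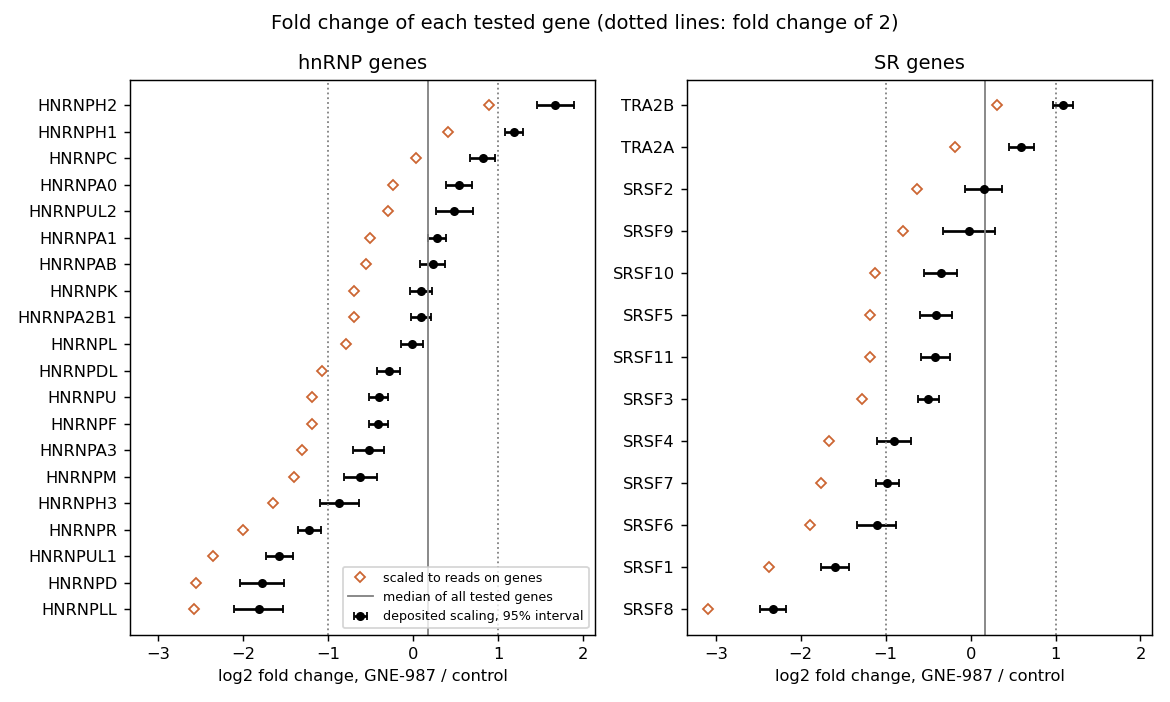
Log2 fold change (GNE-987 over control) of each tested hnRNP gene (left) and SR gene (right), with black points and 95% intervals for the deposited scale and open orange diamonds for scaling to reads on genes. The grey line is the median of all tested genes at 0.17 and dotted lines mark a fold change of 2. HNRNPH1, HNRNPH2 and TRA2B lie past the upper line on the deposited scale but not on the other, and their direction turned under scaling to GAPDH.

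The 2 hnRNP genes called higher belong to the H/F subfamily, whose proteins bind runs of G near splice sites. HNRNPH2 (ENSG00000126945, chromosome X of GRCh38, 101408222 to 101414133, plus strand), whose promoter is printed above, was at 24.6 and 22.5 FPKM in control and at 71.8 and 78.9 FPKM with GNE-987. Both GNE-987 libraries stood above both controls, and the log2 fold change was 1.67 ± 0.0778 (SE, n = 2 libraries per group, adjusted P = 0.000318 from limma). The call was lost when libraries were scaled to reads on genes (0.89), and the direction turned under scaling to GAPDH (-0.18). HNRNPH1 (ENSG00000169045, chromosome 5, 179614178 to 179634784, minus strand), its paralog, was at 50.3 and 50.7 FPKM in control and at 117 and 114 FPKM with GNE-987. Replicates differed by far less than the groups, with a log2 fold change of 1.19 ± 0.0376 (SE, adjusted P = 0.000183). Its call was lost under both scalings to reads and under quantile normalization, and its direction turned under scaling to GAPDH (-0.66).

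The relatives of these genes lay on the other side. HNRNPF, another G-run binding protein, was at 122 and 126 FPKM in control and at 94.6 and 92.2 FPKM with GNE-987, a log2 fold change of -0.41 ± 0.0404 (SE, adjusted P = 0.00166). HNRNPH3, a shorter relative, was at 23.7 and 22.8 FPKM in control and at 13.5 and 11.9 FPKM with GNE-987, a log2 fold change of -0.87 ± 0.0808 (SE, adjusted P = 0.00142). Neither reached a fold change of 2 on the deposited scale. HNRNPH2 shares bases with a readthrough transcript that also spans RPL36A on the same strand. That transcript was listed at 0 in both controls and at 2.58 and 3.75 FPKM with GNE-987, and its part in the value of HNRNPH2 was not tested.

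The 4 hnRNP genes called lower were HNRNPLL, HNRNPD, HNRNPUL1 and HNRNPR. HNRNPLL (ENSG00000143889, chromosome 2, 38561969 to 38603586, minus strand), known for repressing exons of CD45 in lymphocytes, was at 13.4 and 13.9 FPKM in control and at 3.51 and 4.11 FPKM with GNE-987. Its log2 fold change was -1.82 ± 0.102 (SE, adjusted P = 0.000447), and the groups did not overlap. HNRNPD (ENSG00000138668, chromosome 4, 82352498 to 82374503, minus strand), also called AUF1, binds AU-rich elements and helps to set mRNA decay. It was at 52.7 and 46.9 FPKM in control and at 15.2 and 13.7 FPKM with GNE-987, so each treated library lay far below each control. The log2 fold change of HNRNPD was -1.78 ± 0.0921 (SE, adjusted P = 0.000386).

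HNRNPUL1 (ENSG00000105323, chromosome 19, 41262496 to 41307787, plus strand), an HNRNPU-like protein with a role in the DNA damage response, was at 43.9 and 47.3 FPKM in control and at 15.1 and 15.3 FPKM with GNE-987. Both treated libraries lay below both controls, with a log2 fold change of -1.57 ± 0.0570 (SE, adjusted P = 0.000214). HNRNPR (ENSG00000125944, chromosome 1, 23303771 to 23344336, minus strand), a relative of SYNCRIP that acts in mRNA processing and transport, was at 30.6 and 29.5 FPKM in control and at 12.9 and 12.7 FPKM with GNE-987. Its log2 fold change of -1.22 ± 0.0485 (SE, adjusted P = 0.000243) was again larger than the spread of either group. HNRNPLL, HNRNPD, HNRNPUL1 and HNRNPR kept their calls in every alternative with 2 libraries per group, the 4 other scalings included. Each of these scalings shifted the median log2 fold change of all tested genes, by between -1.70 and -0.42. A call of lower could thus hardly be lost under them, and keeping it says little on stability. In the 4 alternatives that left out a library, a group of 1 library was assumed to vary like the other group, so these bear little on stability.

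The other hnRNP genes had smaller fold changes. HNRNPC, which packages nascent RNA and binds U-rich tracts, came closest to the upper threshold, at 89.2 and 93.8 FPKM in control and at 166 and 157 FPKM with GNE-987. Its log2 fold change was 0.82 ± 0.0516 (SE, adjusted P = 0.000571) on the deposited scale, but -1.03 under scaling to GAPDH and -0.19 after quantile normalization. On the deposited scale the log2 fold change was 0.54 for HNRNPA0, which binds AU-rich elements, and 0.48 for HNRNPUL2, another HNRNPU-like protein, and both were below 0 under both scalings to reads and under scaling to GAPDH. HNRNPK, a poly(C) binding protein with KH domains, and HNRNPA2B1, a relative of HNRNPA1 with a role in RNA sorting, each had a log2 fold change of 0.09, with adjusted P values of 0.143 and 0.12. Those fold changes turned under each of the 4 other scalings. HNRNPL, which binds CA-rich RNA, had overlapping groups at 36.7 and 36.9 FPKM in control and 35.7 and 37.4 FPKM with GNE-987. Lower values that did not reach a fold change of 2 were those of HNRNPDL, a relative of HNRNPD, at -0.29, HNRNPU, also known as scaffold attachment factor A, at -0.41, and HNRNPM, which binds GU-rich RNA, at -0.62.

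TRA2B (ENSG00000136527, chromosome 3, 185914558 to 185938103, minus strand), a relative of the fly splicing factor transformer 2 that binds exonic enhancers, was the SR gene called higher. It was at 19.5 and 19.8 FPKM in control and at 42.3 and 41.5 FPKM with GNE-987. These groups were far apart relative to the spread, with a log2 fold change of 1.09 ± 0.0429 (SE, adjusted P = 0.000240). The call was lost under quantile normalization, under both scalings to reads and when tested against a fold change of 2, and the direction turned under scaling to GAPDH (-0.76). Its paralog TRA2A had a log2 fold change of 0.60 ± 0.0524 (SE, adjusted P = 0.00125), which was -1.24 under scaling to GAPDH and -0.18 under scaling to reads on genes.

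The SR genes called lower were SRSF8, SRSF1 and SRSF6. SRSF8 (ENSG00000263465, chromosome 11, 95066919 to 95071225, plus strand), the retroposed relative of SRSF2, was at 22.8 and 23.1 FPKM in control and at 4.54 and 4.47 FPKM with GNE-987. This log2 fold change of -2.33 ± 0.0540 (SE, adjusted P = 0.000131) was the largest of either family on the deposited scale. SRSF1 (ENSG00000136450, chromosome 17, 58000919 to 58007346, minus strand), the prototype of the family and a known oncoprotein, was at 32.4 and 31.0 FPKM in control and at 10.1 and 10.7 FPKM with GNE-987. Each treated library lay far below each control, with a log2 fold change of -1.60 ± 0.0595 (SE, adjusted P = 0.000222). SRSF6 (ENSG00000124193, chromosome 20, 43457893 to 43466046, plus strand), which carries a pair of RNA recognition motifs, was at 34.3 and 32.4 FPKM in control and at 16.3 and 14.6 FPKM with GNE-987. Its log2 fold change was -1.11 ± 0.0796 (SE, adjusted P = 0.000765). SRSF8 and SRSF1 kept their calls in every alternative with 2 libraries per group. SRSF6 did so in all of them but the test with a fold change of 2 as the null value. Since the 4 other scalings shift the median down, they are a weak check of these calls too.

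The other SR genes were not called on the deposited scale. SRSF4, a relative of SRSF6 with a long tail, had a log2 fold change of -0.90 ± 0.0719 (SE, adjusted P = 0.000976) and stood, with SRSF7 at -0.98, just outside the threshold. Values between -0.41 and -0.35 were found for SRSF5, another protein of the SRSF4 group, for SRSF11, an SR protein that contacts U2AF, and for SRSF10, which represses splicing when it is dephosphorylated. SRSF9, a relative of SRSF1, had overlapping groups at 42.6 and 35.5 FPKM in control and 39.7 and 37.3 FPKM with GNE-987, and the wide 95% interval of its log2 fold change ran from -0.32 to 0.29. SRSF12, an SR protein with low expression in most tissues, was listed at 0 in both controls and at 0.868 and 0.747 FPKM with GNE-987, which is 33 and 30 reads. It was under the mean of 0.5 FPKM and was not tested. Against a floor of 3 reads per control library, the lower of its GNE-987 values was at least 25.1-fold higher on the deposited scale. That factor holds for this scale alone, where 1 read counted 2.75 and 2.61 times as much in the GNE-987 libraries as in control 1.

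The families were then compared within each library, where no scaling of a whole library enters before the pseudocount of 0.1. The median log2(FPKM + 0.1) level of the SR genes minus that of the hnRNP genes was -0.85 and -0.84 in control and -1.47 and -1.51 with GNE-987. SR genes made up 21.7% and 20.9% of the summed FPKM of both families in control and 17.2% and 16.8% with GNE-987. On both measures the GNE-987 libraries were apart from the controls, by more than the difference between replicates. A gap of medians is not a median of changes per gene. The hnRNP median was 49.2 and 48.1 FPKM in control and 52.9 and 52.6 FPKM with GNE-987, while the median hnRNP log2 fold change was -0.15. With 2 libraries per group an exact permutation test cannot go below P = 0.333, so no test is given. SRSF12, at 0 in both controls, is among the 14 SR genes here.

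The median log2 fold change was -0.15 over the 20 hnRNP genes and -0.41 over the 13 tested SR genes on the deposited scale, against 0.17 for all tested genes -0.29 for protein-coding genes and 0.11 for protein-coding genes whose mean reached 10 FPKM. The fold change was above 0 in 9 and below 0 in 11 hnRNP genes, and above 0 in 3 and below 0 in 10 SR genes. The background was 8889 above and 7779 below 0 over all tested genes, and 4760 above and 6236 below 0 over protein-coding genes. Over the 5 scalings, the hnRNP median minus that of all tested genes ranged from -0.78 to -0.32, and the SR median minus that of all tested genes from -0.72 to -0.50. The order of the families was not stable. The SR median minus the hnRNP median was -0.26 on the deposited scale and stayed at -0.26 under scaling to GAPDH and under both scalings to reads, but was 0.29 after quantile normalization. It was -0.70 when the 20 genes with an annotated pseudogene were left out. These were 14 of the 20 hnRNP genes and 6 SR genes, so that value rests on few genes. Some of the genes left out had only pseudogenes at 0 in all libraries.

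**Figure D3:**
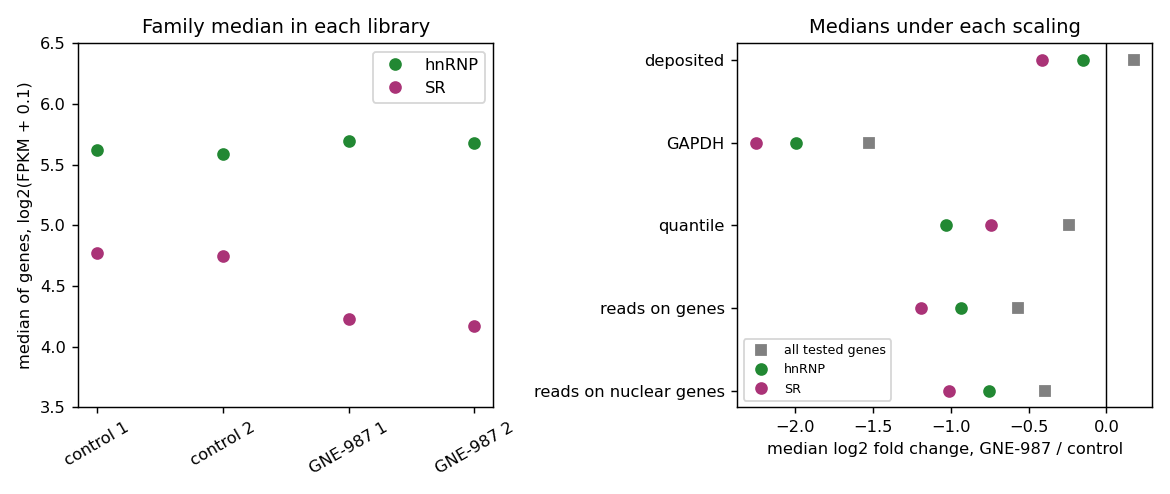
Left, median log2(FPKM + 0.1) of the 20 hnRNP genes and the 14 SR genes in each library, with no error bars since each point is 1 library. Right, median log2 fold change of hnRNP genes, SR genes and all tested genes under each of 5 scalings. SR medians lie below hnRNP medians in all 4 libraries and under 4 scalings, and above them after quantile normalization, while all medians shift together with the scaling.

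Ratios of relatives within a library do not depend on the scaling of the whole library. HNRNPH2 over HNRNPH3 was 1.04 and 0.987 in control and 5.32 and 6.61 with GNE-987. HNRNPH1 over HNRNPF, both G-run binding proteins, was 0.412 and 0.403 in control and 1.23 and 1.24 with GNE-987. In FPKM the order of HNRNPH1 and HNRNPF was thus exchanged in both treated libraries. That order rests on the exon lengths used, 9480 and 3253 bases. By reads HNRNPH1 was already above HNRNPF in control, with 10986 and 10632 against 9153 and 9061. HNRNPD over HNRNPDL was 1.33 and 1.24 in control and 0.476 and 0.435 with GNE-987, with an order exchanged in FPKM and here also in reads. HNRNPUL1 over HNRNPUL2 went from 7.36 and 8.13 to 1.91 and 1.77, and HNRNPLL over HNRNPL from 0.366 and 0.378 to 0.0984 and 0.110. In each of these pairs the difference between groups was larger than that between replicates. The pairs were picked by hand among members chosen with earlier results known. Other pairs, such as HNRNPH2 over HNRNPH1, were not computed, so no share over pairs can be set beside this. For single genes, the groups did not overlap for 89.1% of all tested genes.

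In the SR family SRSF8 over SRSF2 was 0.329 and 0.375 in control and 0.0606 and 0.0633 with GNE-987. SRSF1 over SRSF9 was 0.761 and 0.872 in control and 0.254 and 0.288 with GNE-987. TRA2B over TRA2A was 1.34 and 1.42 in control and 2.00 and 1.89 with GNE-987, so this ratio was also higher in both treated libraries. SRSF6 over SRSF4 was 3.19 and 2.80 in control and 2.82 and 2.40 with GNE-987, and the groups overlapped. A ratio shows unequal change of a pair and not which of them changed.

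**Figure D4:**
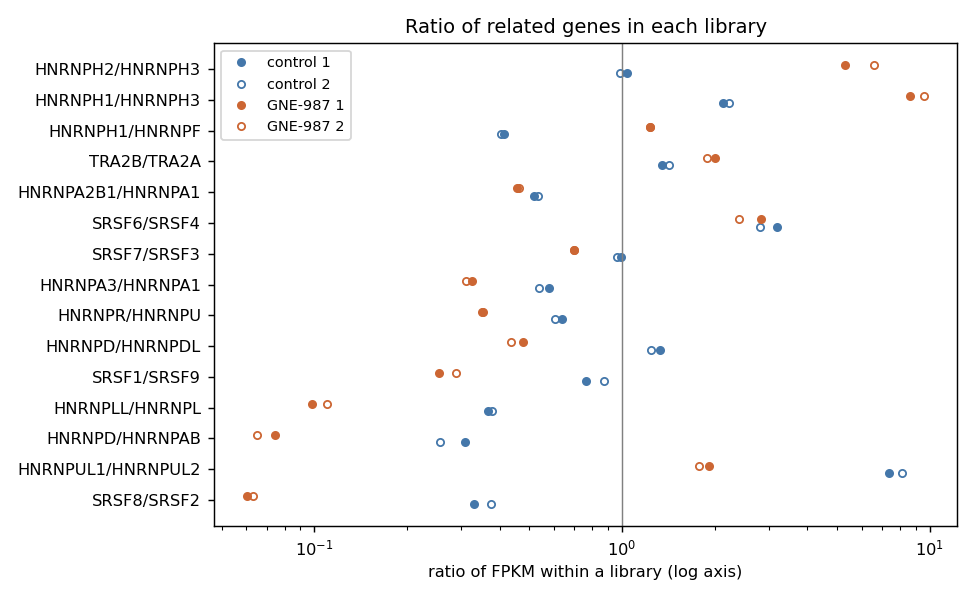
Ratio of FPKM between related genes within each library, on a log axis, with control libraries in blue and GNE-987 libraries in orange (filled, replicate 1, and open, replicate 2). The grey line marks a ratio of 1 in FPKM, which depends on the exon lengths used. The groups lie apart for every pair drawn except SRSF6/SRSF4, with no share over other pairs to set beside this. HNRNPH1/HNRNPF and HNRNPD/HNRNPDL cross the line.

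Reads of several of these genes can be shared with copies or neighbours. The annotation held 134 pseudogenes of 20 of the genes, 123 of hnRNP and 11 of SR genes, and their summed level was 48.9 and 53.1 FPKM in control and 107.6 and 96.6 FPKM with GNE-987. Of the 18 that could be tested, 7 were called higher and 2 lower on the deposited scale (38.9% higher, against 33.6% of all tested genes), 3 and 5 when scaled to reads on genes, and 0 and 9 under scaling to GAPDH. HNRNPCP2, a copy of HNRNPC, was at 11.3 and 13.2 FPKM in control and at 32.2 and 29.96 FPKM with GNE-987. HNRNPC and HNRNPA1 are the parents of most of this signal, and their own fold changes are uncertain by an amount that was not measured. The part of shared reads in the results was not tested.

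The kit named in the labels does not mark strand, so reads from genes on opposite strands of the same bases cannot be told apart. NFE2L3, which overlaps HNRNPA2B1, was at 3.03 and 2.74 FPKM in control and at 50.9 and 49.0 FPKM with GNE-987. PHYKPL, which overlaps HNRNPAB, was at 3.57 and 3.76 FPKM in control and at 38.1 and 38.4 FPKM with GNE-987. HNRNPD shares 362 bases with HNRNPD-DT, at 0.719 and 0.449 FPKM in control and 8.85 and 7.503 FPKM with GNE-987. HNRNPLL shares 581 bases with a noncoding RNA gene, ENSG00000235586, at 3.17 and 2.13 FPKM in control and 0.513 and 0 FPKM with GNE-987. HNRNPUL1 shares 6201 bases with TGFB1, at 66.4 and 58.1 FPKM in control and 73.6 and 80.5 FPKM with GNE-987. All overlaps given here run from gene start to gene end with introns included. Shared exon bases, from which reads could be confused, were not computed. SRSF1 overlaps ENSG00000279069, at 1.38 and 1.73 FPKM in control and 1.19 and 0.748 FPKM with GNE-987. It also shares 6328 bases with ENSG00000266086 on the same strand, which was at 0 in both controls and at 0.0527 and 0 FPKM with GNE-987. SRSF9 shares 26097 bases with DYNLL1, at 42.2 and 38.4 FPKM in control and 56.1 and 53.5 FPKM with GNE-987. SRSF8, TRA2B, HNRNPR and SRSF6 had no overlapping gene in the annotation. The part of these neighbours in the results was not tested.

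Proteins that modify, import or work beside these factors were examined as 6 lists, whose counts are to be read against 33.6% of all tested genes called higher and 24.9% lower on the deposited scale, 24.98% and 39.9% with reads on genes, and 18.01% and 58.1% under scaling to GAPDH. These shares were 26.8% and 36.6% with reads on nuclear-encoded genes and 25.4% and 32.8% after quantile normalization. Among 10 tested kinases and import factors of SR proteins, 2 were called higher and 3 lower, with a median log2 fold change of -0.01. With reads on genes 1 was higher and 4 lower, and under GAPDH 0 and 8. CLK1, a kinase that phosphorylates SR proteins in the nucleus, was at 4.12 and 4.07 FPKM in control and at 26.6 and 27.0 FPKM with GNE-987. Its log2 fold change of 2.68 ± 0.0535 (SE, adjusted P = 0.000115) stayed past the threshold under 3 of 4 other scalings, and was 0.84 under scaling to GAPDH. PRPF4B, a spliceosomal kinase, had a log2 fold change of 1.02 and lost its call under each other scaling, with a turned direction under GAPDH. TNPO3, the import receptor of SR proteins, was at 26.9 and 27.8 FPKM in control and at 8.52 and 8.21 FPKM with GNE-987. TNPO3 had a log2 fold change of -1.70 and the kinase SRPK3 one of -1.75, and both stayed called lower under every scaling. The other scalings shift the median down, so this says little on stability.

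Among 28 SR-related proteins, which carry the arginine and serine rich tail but act in varied steps, 3 were called higher and 13 lower, with a median of -0.65. With reads on genes the counts were 1 and 15, and under GAPDH 0 and 25. The share called on the deposited scale, 57.1%, was near the 58.5% of all tested genes. Among those called higher was SCAF4, which acts at transcript ends, with a log2 fold change of 1.61. The largest downward were -2.01 for SFSWAP, a splicing regulator, and -3.55 for U2AF1, the subunit of U2AF that reads the end of the intron. Reads of U2AF1 can be shared with a near-identical copy, and its value is uncertain. SCAF4 lost its call when scaled to reads on genes and turned under scaling to GAPDH. Of 8 proteins that belong to the hnRNP group under other names, 3 were called higher and 1 lower, with a median of 0.64. The balance rested on the scaling, with 1 and 2 with reads on genes (median -0.14), 2 and 2 after quantile normalization (median -0.15) and 0 and 4 under GAPDH. PCBP2, a poly(C) binding protein, was at 25.02 and 23.0 FPKM in control and at 103 and 101 FPKM with GNE-987, a log2 fold change of 2.08 that lost its call under GAPDH (0.23). The log2 fold change was 1.62 for RALY, a relative of HNRNPC, which lost its call when scaled to reads on genes and turned under scaling to GAPDH, and -1.53 for SYNCRIP, the relative of HNRNPR.

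The core spliceosome list of 64 genes had 6 called higher and 17 lower, with a median of -0.38. The share called, 35.9%, was below that of all tested genes, and the counts were 2 and 37 with reads on genes, 3 and 31 with reads on nuclear-encoded genes and 0 and 57 under GAPDH. The largest log2 fold changes upward were 2.47 for SYF2 and 2.05 for BUD31, both of the catalytic spliceosome, and both lost their calls under GAPDH (0.63 and 0.20). The largest downward were -3.01 for CWC22, which loads the exon junction complex, and -2.26 for SF3B3, a subunit of the branch site complex SF3b. Other splicing regulators had 4 of 22 called higher and 7 lower, with a median of -0.56. With reads on genes the counts were 1 and 13, and under GAPDH 0 and 18. SFPQ, a paraspeckle protein, and KHSRP, a KH domain protein, had log2 fold changes of 1.84 and 1.29, which both turned under scaling to GAPDH. After quantile normalization SFPQ was at 0.65 and not called, and KHSRP lost its call under each of the 4 other scalings, with 0.0099 after quantile normalization. TIA1, which binds U-rich introns, and RBM5, a regulator of splicing in apoptosis genes, had -2.00 and -1.88.

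Of 15 genes of the exon junction complex and NMD, 2 were called higher and 6 lower, with the lowest median of the lists, -0.94. The share called was 53.3%, against 58.5% of all tested genes, and the counts were 1 and 10 with reads on genes and 0 and 13 under GAPDH. EIF4A3, the helicase at the centre of the exon junction complex, was at 31.3 and 29.5 FPKM in control and at 123 and 122 FPKM with GNE-987, a log2 fold change of 2.01 that lost its call under GAPDH (0.16). SMG1, the kinase that starts NMD, had a log2 fold change of 1.26, which turned under scaling to GAPDH and lost its call under both scalings to reads (0.48 and 0.66), while SMG8, its regulator, had -1.77 and MAGOHB, a core subunit, -1.51. Over the 5 scalings, the median of this list minus that of all tested genes ranged from -1.22 to -0.82. The same difference ranged from -0.93 to -0.65 for SR-related proteins, from -0.87 to -0.69 for other regulators and from -0.70 to -0.54 for the core spliceosome. It ranged from -0.26 to -0.19 for kinases and import factors, and from 0.10 to 0.47 for hnRNP proteins under other names. On the deposited scale the median was -0.29 for protein-coding genes, on the side of most lists, but 0.11 for protein-coding genes whose mean reached 10 FPKM, near the 0.17 of all tested genes.

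**Figure D5:**
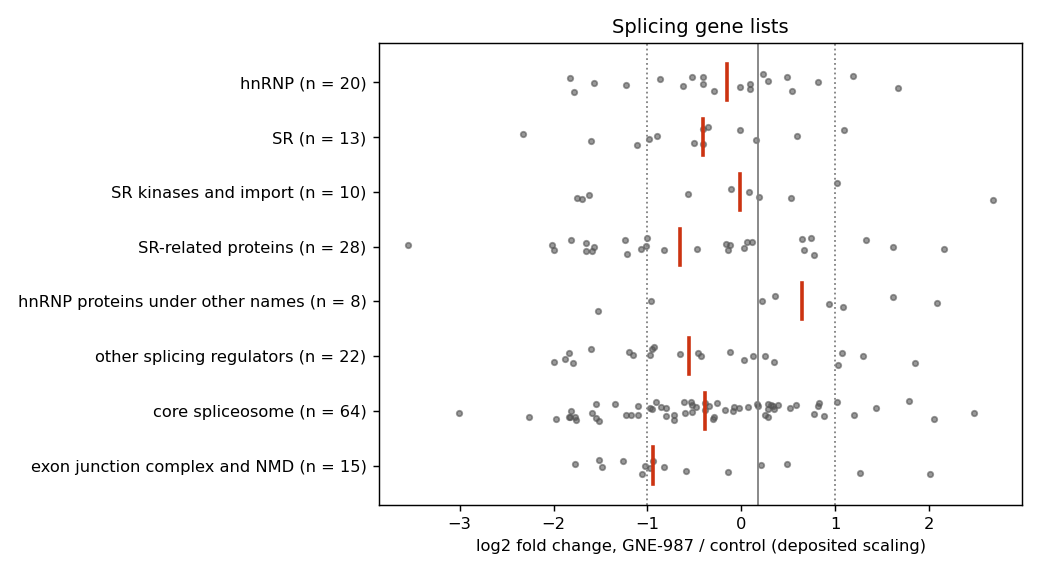
Log2 fold change (GNE-987 over control, deposited scale) of each tested gene in the 2 families and the 6 lists, as grey points with small vertical scatter for legibility. Red bars are medians, the grey line is the median of all tested genes at 0.17 and dotted lines mark a fold change of 2. Medians run from -0.94 for the exon junction complex and NMD to 0.64 for hnRNP proteins under other names, and all of them fall below 0 under scaling to GAPDH.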

How the data were processed

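RNA-seq values of 4 libraries, 2 untreated and 2 treated with GNE-987, were analysed. The authors filtered the reads and mapped them with HISAT, and the submitters' processing notes name HISAT2 2.0.5 and hg38. The deposited table holds FPKM values, which the authors scaled between libraries; they equal a median-ratio scaling. The counting program and the annotation are not given in the sources used here. Groups and replicate numbers were taken from the sample labels, and dose and time from the study's text.

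Values were transformed to log2(FPKM + 0.1), which understates the fold change of low genes. Genes whose mean reached 0.5 FPKM, 16668 in all, were tested, two-sided, with limma 3.58.1 in R 4.3.3 (empirical Bayes with an intensity trend, no replicate block). A gene was called when the unadjusted P was below 0.05 and the fold change above 2 or below 0.5. Adjusted P values follow Benjamini and Hochberg and cover every tested gene. FPKM are not counts, so no test for counts gave the values reported. Where a symbol had more than 1 identifier, the one with the higher mean was used.

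Because a gene's FPKM values are multiples of its value for a single read, reads could be recovered (tolerance 0.01 read). At GENCODE release 44 exon lengths 17431 of 32895 genes (53.0%) came out whole, 7 of the 34 members among them, and the rest at another length, which is a weaker check. Tested members had between 153 and 29639 reads per library. Intervals and floors cover counting error or the spread between libraries only. Replicate numbers did not pair the libraries (correlation of deviations 0.00537 over genes).

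Called members, the 3 genes of each family with the highest control level, and, of each list, up to 2 called genes with the largest fold change in each direction are named with their values. A result for a gene that this rule names among the SR-related proteins is not reported here. The members, lists and motifs were chosen with earlier results of these data known. The steps were tested on simulated data. Alternatives were other scalings, pseudocounts and filters, adjusted P values, limma treat at a fold change of 2, limma-voom on recovered reads, the replicate block and leaving out each library.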

Additional observations from a re-analysis of the deposited data

How the results depend on the processing

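Scaling was the choice that moved the calls most. Under scaling to GAPDH (398 and 432 FPKM in control, 1501 and 1499 FPKM with GNE-987), 0 hnRNP genes were called higher and 18 lower, and 0 SR genes higher and 12 lower. After quantile normalization the counts were 1 higher and 12 lower for hnRNP and 0 and 5 for SR. Scaled to reads on genes they were 0 and 10 for hnRNP and 0 and 9 for SR, and scaled to reads on nuclear-encoded genes, an alternative chosen after seeing the data, 1 and 9 for hnRNP and 0 and 8 for SR. Median-ratio scaling gave the deposited values again, so it adds no check. Each of the other scalings shifted the median of all tested genes down, which works against calls of higher and spares calls of lower. With no filter 2 SR genes were called higher, SRSF12 being added, and in the test against a fold change of 2 this count was 0. Over all tested genes, the share called higher and lower was 33.6% and 24.9% on the deposited scale, 18.01% and 58.1% under GAPDH, 25.4% and 32.8% after quantile normalization and 24.98% and 39.9% with reads on genes. With reads on nuclear-encoded genes it was 26.8% and 36.6%.

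The SR median minus the hnRNP median was reversed after quantile normalization (0.29) and was -0.70 over the few genes without an annotated pseudogene. It ranged from -0.34 to -0.25 when each library was left out. Why quantile normalization turned it was not tested. Over the fits that lack a library, the number of SR genes called lower was between 3 and 4, SRSF7 crossing the threshold. No pairing of libraries was found, and with the replicate block the call of each of the 33 tested genes was as without it, with 2 hnRNP genes higher and 4 lower.

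Fold changes that were above 0 on the deposited scale turned under GAPDH for HNRNPA0 (-1.31), HNRNPA1 (-1.57), HNRNPA2B1 (-1.76), HNRNPAB (-1.62), HNRNPC (-1.03), HNRNPH1 (-0.66), HNRNPH2 (-0.18), HNRNPK (-1.76), HNRNPUL2 (-1.33), SRSF2 (-1.70), TRA2A (-1.24) and TRA2B (-0.76). After quantile normalization those of HNRNPA1 (-1.39), HNRNPA2B1 (-1.03), HNRNPAB (-1.19), HNRNPC (-0.19), HNRNPK (-1.01) and SRSF2 (-0.58) turned. With reads on genes those of HNRNPA0 (-0.24), HNRNPA1 (-0.50), HNRNPA2B1 (-0.69), HNRNPAB (-0.55), HNRNPK (-0.69), HNRNPUL2 (-0.29), SRSF2 (-0.63) and TRA2A (-0.18) turned, and with reads on nuclear-encoded genes those of HNRNPA0 (-0.063), HNRNPA1 (-0.32), HNRNPA2B1 (-0.51), HNRNPAB (-0.37), HNRNPK (-0.51), HNRNPUL2 (-0.11), SRSF2 (-0.45) and TRA2A (-0.0048). With 1 library left out, HNRNPL ranged from -0.043 to 0.022 and SRSF9 from -0.15 to 0.11.

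The lower depth with GNE-987 makes low values there less precise, and 2 libraries per group limit every interval.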
